A study of Mus musculus with 6 samples.

Results

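The 36 autophagy and lysosome genes are a list of known pathway members, taken by symbol from the deposited exon count table, and they are 36 of its 55378 genes. The rule uses no measured value, but the list was drawn up with earlier results of these data known, so its share of called genes is not that of an unselected list. All 36 were found and all 36 stayed among the 15619 genes that passed the filter on low counts. They were compared between 3 libraries from mouse zygotes injected with an siRNA against Eif4a3 (the knockdown) and 3 libraries from zygotes injected with a negative control siRNA (NC). Each library held the polyadenylated RNA of a pool of 5 embryos taken at the blastocyst stage on day 5, and was made with Smart-seq2, which copies full-length mRNA from few cells. Strain, parental age and embryo sex are not given in the sources used here. Nothing says whether the pools of a group came from separate parents, so the p-values measure only the spread between these samples, which may be technical.

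Autophagy encloses cytoplasm in a double membrane, the autophagosome, and delivers it to lysosomes. A kinase complex with Ulk1 and Atg13 starts the process, lipid kinase and membrane supply factors build the membrane, and a ubiquitin-like conjugation machinery attaches ATG8 proteins such as the LC3 and GABARAP proteins to it. Lysosomes degrade the cargo with hydrolases that work in the acid made by a proton pump, and the transcription factors TFEB and TFE3 activate many genes of both organelles. In the mouse, autophagy is known to be needed soon after fertilization for the breakdown of maternal proteins. Eif4a3 itself is a DEAD-box protein that anchors the exon junction complex on mRNA after splicing.

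Eif4a3 RNA measured 16.03, 36.2 and 56.2 CPM (counts scaled to library size) in knockdown replicates 1 to 3, against 302, 255 and 202 CPM in NC replicates 1 to 3. It was 7.0-fold lower in the knockdown (log2 −2.81, standard error 0.44, adjusted p 0.00512 by edgeR's quasi-likelihood test with Benjamini-Hochberg adjustment over all genes tested), and −1.52 when only its most counted exon block was used (adjusted p 0.0403). The summed counts over genes were 16157719 to 18697754 per knockdown library and 15607227 to 18389986 per NC library. Of the blastocyst marker lists, 3 of 6 trophectoderm, 2 of 4 epiblast and 2 of 5 primitive endoderm genes (4 of these 5 were tested) were lower in the knockdown. Their summed levels in CPM per kilobase of exon were 264 to 1177 in the knockdown and 1181 to 3052 in NC for trophectoderm, 53.9 to 71.2 in the knockdown and 148 to 209 in NC for epiblast, and 11.1 to 13.4 in the knockdown and 56.4 to 62.8 in NC for primitive endoderm. A few genes dominate these sums. Krt8 and Krt18 averaged 327 and 310 in the knockdown and 875 and 1212 in NC. Sparc averaged 3.06 in the knockdown and 48.1 in NC. Gata6 and Gata4 did not pass (adjusted p 0.794 and 0.639 by edgeR). Nor did Cdx2, Krt8 and Tfap2c (0.0676, 0.134 and 0.703) or Nanog and Pou5f1 (0.155 and 0.293). The part of these markers in the results on autophagy and lysosome genes was not tested. The cumulus cell genes Has2, Ptx3 and Tnfaip6 were at 0 in all 6 libraries, and the 6 macrophage and blood genes together had 3.33 to 7.98 CPM per kilobase in the knockdown and 7.63 to 48.4 in NC. Of these, 4 were tested and 1 was lower, the globin gene Hbb-bs (14.9-fold, adjusted p 0.0132 by edgeR). The globin genes Hba-a1 and Hbb-bs made up most of the NC sum, averaging 14.4 and 7.16 CPM per kilobase in NC. The macrophage gene Csf1r averaged 0.886 in the knockdown and 0.550 in NC, and Lyz2 averaged 1.01 in the knockdown and 2.04 in NC. Neither passed (adjusted p 0.585 and 0.608 by edgeR). In pooled embryos, fewer cells of a type and less RNA per cell cannot be told apart.

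Of the 36 members, 8 rose and 2 fell in the knockdown. The 8 that rose were Atg9b, Ctsz, Uvrag, Ctsc, Lamp2, Atg9a, Map1lc3a and Atp6v1h, spread over membrane supply, ATG8 proteins, the lysosomal membrane, the proton pump and the proteases. Those that fell were Atg13 and Tfeb. The called share was 27.8% of members, where 13.1% of all genes tested were called. It was 22.2% against 7.52% for higher genes and 5.56% against 5.56% for lower genes. The groups did not overlap for 14 members, 11 higher and 3 lower, which is 38.9% against 36.4% of all genes (20.1% higher and 16.4% lower). The median log2 fold change was −0.18 over the members and 0.03 over all genes, with 15 members above 0 and 21 below. The 26 members that did not pass had log2 fold changes between −0.85 and 0.60 and adjusted p-values of 0.183 or more by edgeR. All 10 called members kept their direction under every alternative, but only Atg13 and Atg9b kept the call under every one. The other 8 lost it when some single library was left out, and the values are given beside each gene.

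**Figure D1:**
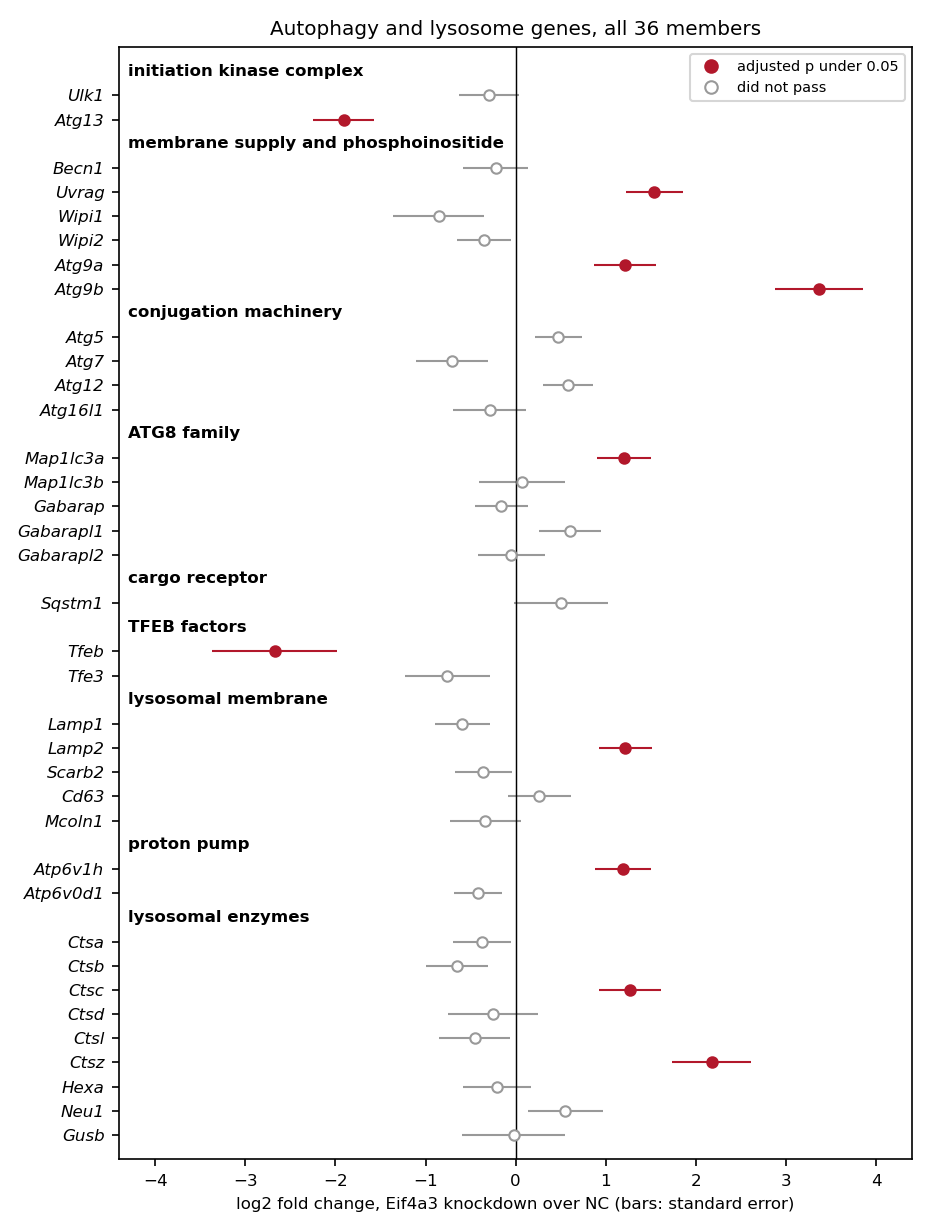
Log2 fold change of each of the 36 members, knockdown over NC, grouped by role, with the standard error as a horizontal bar (3 libraries per group, edgeR). Filled points are the 10 members with an adjusted p under 0.05, of which 8 lie right of 0 and 2, Atg13 and Tfeb, lie left of it.

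The initiation kinase complex was represented by Ulk1, its protein kinase, and Atg13, the adaptor that holds the complex together. Atg13 (ENSMUSG00000027244, chromosome 2, 91674618 to 91710576, minus strand, GRCm38) had 90.3, 53.3 and 47.5 CPM in the knockdown libraries, against 228, 186 and 304 CPM in the NC libraries. Every knockdown library was below every NC library, and the highest knockdown value was replicate 1. Atg13 averaged 63.7 ± 23.2 CPM in the knockdown and 239 ± 60.0 CPM in NC (SD, n = 3 each), 3.76-fold lower (log2 −1.91, standard error 0.34, adjusted p 0.00820 by edgeR). The fall ran along the whole transcript. In each of the 18 exon blocks with at least 10 counts, all 3 knockdown libraries were below all 3 NC libraries, at 0.0652 to 0.373 of the NC mean. Leaving out any 1 library gave −2.29 to −1.72 with an adjusted p of 0.00613 to 0.0402. Ulk1 had 137, 89.8 and 64.7 CPM in the knockdown against 138, 92.4 and 128 CPM in NC, so the groups overlapped (−0.30, adjusted p 0.587).

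Membrane supply held 3 of the 8 members that rose. Atg9a and Atg9b encode multispanning membrane proteins that scramble lipids and travel on the vesicles that seed the autophagosome, and Uvrag is a subunit of a class III phosphatidylinositol 3-kinase complex with Becn1. Atg9b (ENSMUSG00000038295, chromosome 5, 24384181 to 24392143, minus strand) had 18.8, 13.1 and 7.52 CPM in the knockdown libraries, against 1.29, 1.53 and 0.984 CPM in NC. The lowest knockdown library was several times the highest NC library. The means were 13.2 ± 5.63 CPM in the knockdown and 1.27 ± 0.272 CPM in NC (SD, n = 3 each), 10.4-fold higher (log2 3.37, standard error 0.49, adjusted p 0.00431), the largest rise among the members. In all 14 of its exon blocks the knockdown libraries lay above the NC libraries without overlap. Its first 3 blocks from the 5′ end held 91, 24 and 5 counts in the knockdown and 0, 0 and 0 in NC. Pooled over the libraries, the knockdown was at least 37.0-fold higher when the NC group is set to 3 counts in all. That bound covers counting error only. Knockdown replicate 1 held 91 of the 120 pooled counts, so the bound does not describe each library. These 3 blocks were set apart after the values were seen. Blocks 4 to 14 had 14.5, 11.7 and 7.22 CPM in the knockdown against 1.29, 1.53 and 0.984 CPM in NC. Exons of Nos3 on the opposite strand cover 294 bases of Atg9b, and with those blocks left out of both genes Atg9b had 3.71 (adjusted p 0.00575). From its most counted block alone it had 2.69 (adjusted p 0.00821).

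The broadly expressed paralog Atg9a (ENSMUSG00000033124, chromosome 1, 75180860 to 75192196, minus strand) had 97.3, 53.4 and 53.4 CPM in the knockdown, against 26.5, 37.2 and 24.2 CPM in NC. All 3 knockdown libraries were above all 3 NC libraries, with replicate 1 standing above the other knockdown pools. Atg9a was 2.32-fold higher (log2 1.22, standard error 0.34, adjusted p 0.0431 by edgeR). Its call was lost when any 1 of the 6 libraries was left out (adjusted p 0.0575 to 0.137, log2 0.83 to 1.39) and when all exon lines were summed (1.17, adjusted p 0.0511). All 15 blocks had a higher mean in the knockdown, 1.37 to 2.84-fold, and in 6 of them the groups did not overlap. Exon usage of Atg9a did not pass (unadjusted p 0.886 by edgeR's Simes test). Over blocks 1 to 8 Atg9a had 61.4, 28.5 and 38.8 CPM in the knockdown against 14.7, 20.98 and 13.9 CPM in NC. Over blocks 9 to 14 it had 18.3, 5.09 and 1.08 CPM in the knockdown against 6.12, 3.59 and 3.94 CPM in NC, and the groups overlapped. The last block had 17.6, 19.8 and 13.5 CPM in the knockdown against 5.62, 12.6 and 6.37 CPM in NC. These bounds were chosen after the values were seen and were not tested. The predicted gene Gm29253 on the same strand shares 1832 bases with Atg9a, so part of these counts cannot be assigned to one of them. Without shared blocks Atg9a had 1.38 (adjusted p 0.0346).

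The log2 ratio of Atg9b to Atg9a was −2.34, −1.98 and −2.75 in the knockdown and −3.91, −4.22 and −4.06 in NC. Every knockdown ratio was above every NC ratio, and the means differed by 1.70 (exact two-sided permutation test, p = 0.1, the smallest that 3 libraries against 3 allow, and 0.4 after adjustment over the 5 paralog ratios computed). From the single most counted block per gene, the difference was 0.80.

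Uvrag (ENSMUSG00000035354, chromosome 7, 98885021 to 99141141, minus strand) had 36.7, 32.3 and 28.2 CPM in the knockdown, against 13.9, 10.2 and 9.38 CPM in NC. The groups were well apart and narrow, and Uvrag was 2.91-fold higher (log2 1.54, standard error 0.32, adjusted p 0.0136 by edgeR). Without NC replicate 2 the adjusted p was 0.0760 and without NC replicate 3 it was 0.0559. All 16 counted blocks had a higher mean in the knockdown, 1.55 to 8.19-fold. Blocks 1 to 16 had 27.3, 25.5 and 25.1 CPM in the knockdown against 8.46, 7.04 and 6.43 CPM in NC, 3.55-fold higher. Blocks 18 to 21, at the 3′ end, had 9.47, 6.84 and 3.13 CPM in the knockdown against 5.42, 3.12 and 2.95 CPM in NC, 1.69-fold higher by the means with overlap. Exon usage of Uvrag did not pass (unadjusted p 0.614 by edgeR's Simes test). With only the most counted block Uvrag lost the call (0.79, adjusted p 0.268). These bounds, too, were chosen after the values were seen.

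Becn1, the scaffold of the same kinase complexes, had 62.0, 42.6 and 37.2 CPM in the knockdown against 81.3, 46.9 and 37.1 CPM in NC and did not pass (−0.22, adjusted p 0.722). Exons of Cntd1 cover 43.9% of its exon length. Wipi1 and Wipi2 bind the phosphoinositide made by that complex and recruit the conjugation machinery. Wipi2 had 352, 206 and 297 CPM in the knockdown and 436, 335 and 320.2 CPM in NC. Wipi1 had 4.31, 2.67 and 2.41 CPM in the knockdown and 8.55, 3.19 and 5.25 CPM in NC. Groups overlapped for both, and neither passed (−0.35 and −0.85). Their log2 ratio, Wipi1 to Wipi2, differed by −0.33 between the groups (exact permutation test, p = 0.4).

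**Figure D2:**
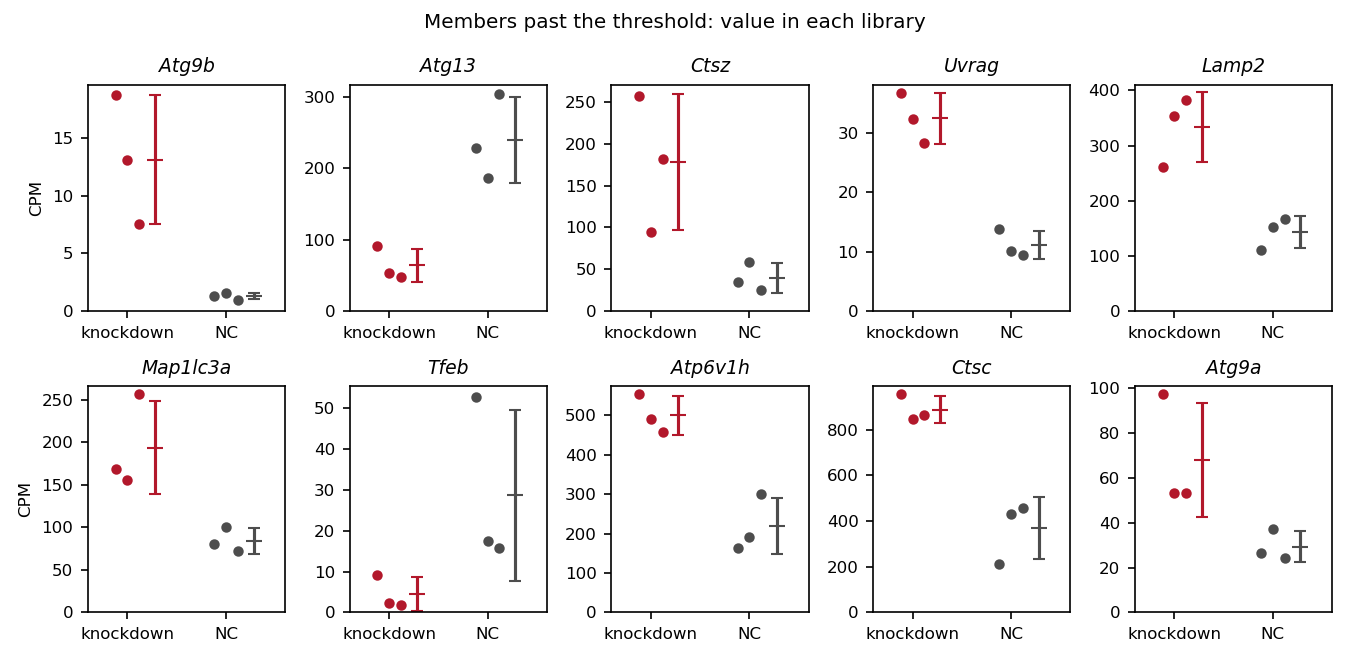
CPM of the 10 members past the threshold in each library, knockdown left and NC right, with the mean and SD of 3 libraries beside the points. In every panel the 3 knockdown points lie wholly above or, for Atg13 and Tfeb, wholly below the 3 NC points.

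The conjugation machinery had 0 of 4 members past the threshold by edgeR, and 0 of the 4 had an unadjusted p under 0.05. Atg5 and Atg12 form a conjugate that, with Atg16l1, attaches ATG8 proteins to lipid, and Atg7 is the activating enzyme. Atg5 had 115, 150.2 and 131 CPM in the knockdown against 96.7, 87.0 and 101 CPM in NC. Atg12 had 62.9, 94.7 and 82.8 CPM in the knockdown against 49.8, 56.6 and 53.9 CPM in NC. Both stood higher in every knockdown library, and all 8 exon blocks of Atg5 did so, but neither passed (0.47, adjusted p 0.248, and 0.58, adjusted p 0.183). Atg7 had 65.9, 22.5 and 30.0 CPM in the knockdown and 75.4, 61.6 and 55.8 CPM in NC. Only knockdown replicate 1 overlapped NC (−0.70, adjusted p 0.267), and without that library Atg7 passed (−1.33, adjusted p 0.0253). Atg16l1 had 30.6, 12.3 and 16.2 CPM in the knockdown and 32.2, 21.7 and 18.4 CPM in NC, with overlap (−0.29).

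Of the 5 ATG8 genes, whose proteins coat the autophagosome, only Map1lc3a rose. Map1lc3a (ENSMUSG00000027602, chromosome 2, 155276297 to 155278073, plus strand) had 169, 156 and 257 CPM in the knockdown, against 80.0, 101 and 71.7 CPM in NC. It was 2.31-fold higher without overlap (log2 1.21, standard error 0.30, adjusted p 0.0283 by edgeR), and each of its 4 exon blocks was higher in every knockdown library. Its adjusted p was 0.0889 without knockdown replicate 3, and 0.0862, 0.0755 and 0.106 without NC replicates 1, 2 and 3. Its paralog Map1lc3b was far more abundant and varied widely inside both groups, with 3143, 5045 and 8287 CPM in the knockdown and 2436, 6334 and 6892 CPM in NC (0.07, adjusted p 0.936). The log2 ratio of Map1lc3a to Map1lc3b differed by 1.08, with overlap (exact permutation test, p = 0.3). It was 0.70 without NC replicate 3 and 1.53 without NC replicate 1.

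Gabarapl2, the most abundant member by CPM per kilobase, had 2741, 5315 and 4614 CPM in the knockdown and 3224, 4292 and 5573 CPM in NC (−0.05). Gabarap had 43.3, 64.3 and 64.9 CPM in the knockdown and 52.0, 60.7 and 79.5 CPM in NC (−0.16). Both overlapped. Gabarapl1 had 14.8, 12.4 and 9.75 CPM in the knockdown against 8.75, 7.57 and 8.01 CPM in NC, higher in 3 of 3 knockdown libraries but short of the threshold (0.60, adjusted p 0.273). The ratio of Gabarapl1 to Gabarapl2 differed by 0.62 on the log2 scale (exact permutation test, p = 0.4). Per length, the ATG8 genes ran in the knockdown in the order Gabarapl2 (1817 CPM per kilobase), Map1lc3b (731), Map1lc3a (164), Gabarap (31.2) and Gabarapl1 (6.11). The order was the same in NC, with levels of 1877, 695, 71.2, 34.8 and 4.03 CPM per kilobase.

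Tfeb and Tfe3 are basic helix-loop-helix factors that move to the nucleus when nutrients are short. Tfeb (ENSMUSG00000023990, chromosome 17, 47737030 to 47792419, plus strand) had 9.23, 2.24 and 1.93 CPM in the knockdown, against 52.8, 17.5 and 15.8 CPM in NC. The groups did not overlap, and replicate 1 was the highest library in each. Tfeb was 6.42-fold lower (log2 −2.67, standard error 0.69, adjusted p 0.0320 by edgeR). The size of the fall rested on single libraries, with −3.83 (adjusted p 0.00991) without knockdown replicate 1 and −1.88 (adjusted p 0.120) without NC replicate 1. The call was also lost without knockdown replicate 2 (0.107), knockdown replicate 3 (0.0896) or NC replicate 2 (0.0593). Nearly all Tfeb counts lay in blocks 10 to 18, with 9.09, 2.18 and 1.93 CPM in the knockdown and 51.7, 17.3 and 15.7 CPM in NC. Tfe3 was among the least abundant members, with 2.30, 4.48 and 2.29 CPM in the knockdown and 5.72, 5.58 and 4.003 CPM in NC. It did not pass and the groups overlapped (−0.76, adjusted p 0.312). The ratio of Tfe3 to Tfeb differed by 1.93 on the log2 scale, with overlap (exact permutation test, p = 0.2).

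In mammalian cells TFEB and TFE3 are known to bind a motif built on CACGTG near the start sites of lysosomal genes. RefSeq windows of 250 bases before to 50 bases after the start (GRCm38.p6) were matched for 30 of the 36 members by symbol. CACGTG, which reads the same on both strands, was in a window of 8 of these 30 genes (8 of 34 windows, 23.5%), against 7.15% of all 32851 windows. The longer TCACGTGA, which contains it, was in 11.8% of member windows and 0.974% of all windows. The same letters with a G before and a C after were in 0 of the 34 member windows and 0.326% of all windows. The sequences from 110 bases before to 10 bases after the start are shown for 4 members, to set genes with and without the motif side by side. CACGTG is in capitals. Lamp1 lies at chr8:13159051-13159170 on the plus strand, Atp6v0d1 at chr8:105566055-105566174, Ctsz at chr2:174439030-174439149 and Atg13 at chr2:91710583-91710702, these 3 on the minus strand.
Lamp1: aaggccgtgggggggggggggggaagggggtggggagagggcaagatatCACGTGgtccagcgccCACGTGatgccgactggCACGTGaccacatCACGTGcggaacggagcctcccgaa
Atp6v0d1: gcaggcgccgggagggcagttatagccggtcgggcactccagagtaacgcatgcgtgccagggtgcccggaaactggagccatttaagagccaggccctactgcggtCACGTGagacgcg
Ctsz: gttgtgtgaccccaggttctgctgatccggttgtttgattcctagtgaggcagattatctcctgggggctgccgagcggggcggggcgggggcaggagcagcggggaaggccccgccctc
Atg13: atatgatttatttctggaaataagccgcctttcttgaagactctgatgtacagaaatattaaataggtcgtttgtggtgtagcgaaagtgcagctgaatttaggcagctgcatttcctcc

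The Lamp1 window holds CACGTG 4 times, the Atp6v0d1 window once, and the Ctsz and Atg13 windows not at all. The 8 members with the motif were Atg5, Atg7, Atp6v0d1, Ctsa, Ctsd, Ctsl, Lamp1 and Mcoln1. By edgeR 0 of these 8 passed the threshold and 0 had an unadjusted p under 0.05, with log2 fold changes of −0.70 to 0.47, of which 7 were negative. Of all genes tested 13.1% passed, and 8 genes are too few to tell 0 from that share. Of the 22 members with a window and no CACGTG, 11 were negative. All 8 called members with a window were therefore among those 22, which restates the same count. A match describes letters in a window and not a bound site.

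The lysosomal membrane genes had 1 of 5 members higher. Lamp1 and Lamp2 encode the heavily glycosylated proteins that line the lysosome, and Lamp2 is also needed for fusion and, through one isoform, for direct protein import. Lamp2 (ENSMUSG00000016534, chromosome X, 38401357 to 38456454, minus strand) had 262, 354 and 383 CPM in the knockdown, against 110.1, 152 and 168 CPM in NC. Every knockdown library exceeded every NC library, and Lamp2 was 2.32-fold higher (log2 1.22, standard error 0.30, adjusted p 0.0251 by edgeR). The adjusted p was 0.0726 and 0.0723 without knockdown replicates 2 and 3, and 0.0863, 0.0893 and 0.0596 without NC replicates 1, 2 and 3.

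Lamp2 ends in 1 of 3 alternative last exons, which give proteins with different tails. In the GENCODE vM21 annotation the protein-coding transcript Lamp2-202 ends in block 10 from the 5′ end, Lamp2-201 in block 11 and Lamp2-203 in block 12. Block 10 held 4.47%, 5.28% and 5.37% of Lamp2 block counts in the knockdown, against 11.2%, 10.4% and 9.35% in NC. Block 11 held 8.95%, 11.6% and 7.85% in the knockdown against 7.68%, 7.29% and 6.77% in NC. In CPM, block 10 was about level between the groups, with 11.7, 18.7 and 20.6 in the knockdown and 12.3, 15.9 and 15.7 in NC, and block 11 was 3.06-fold higher in the knockdown. Block 12 had 0, 0 and 1 counts in the knockdown and 4, 7 and 10 in NC. The lower share of block 10 had an unadjusted p of 0.00825 and did not pass after adjustment over all blocks (0.865, edgeR's exon usage test).

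**Figure D3:**
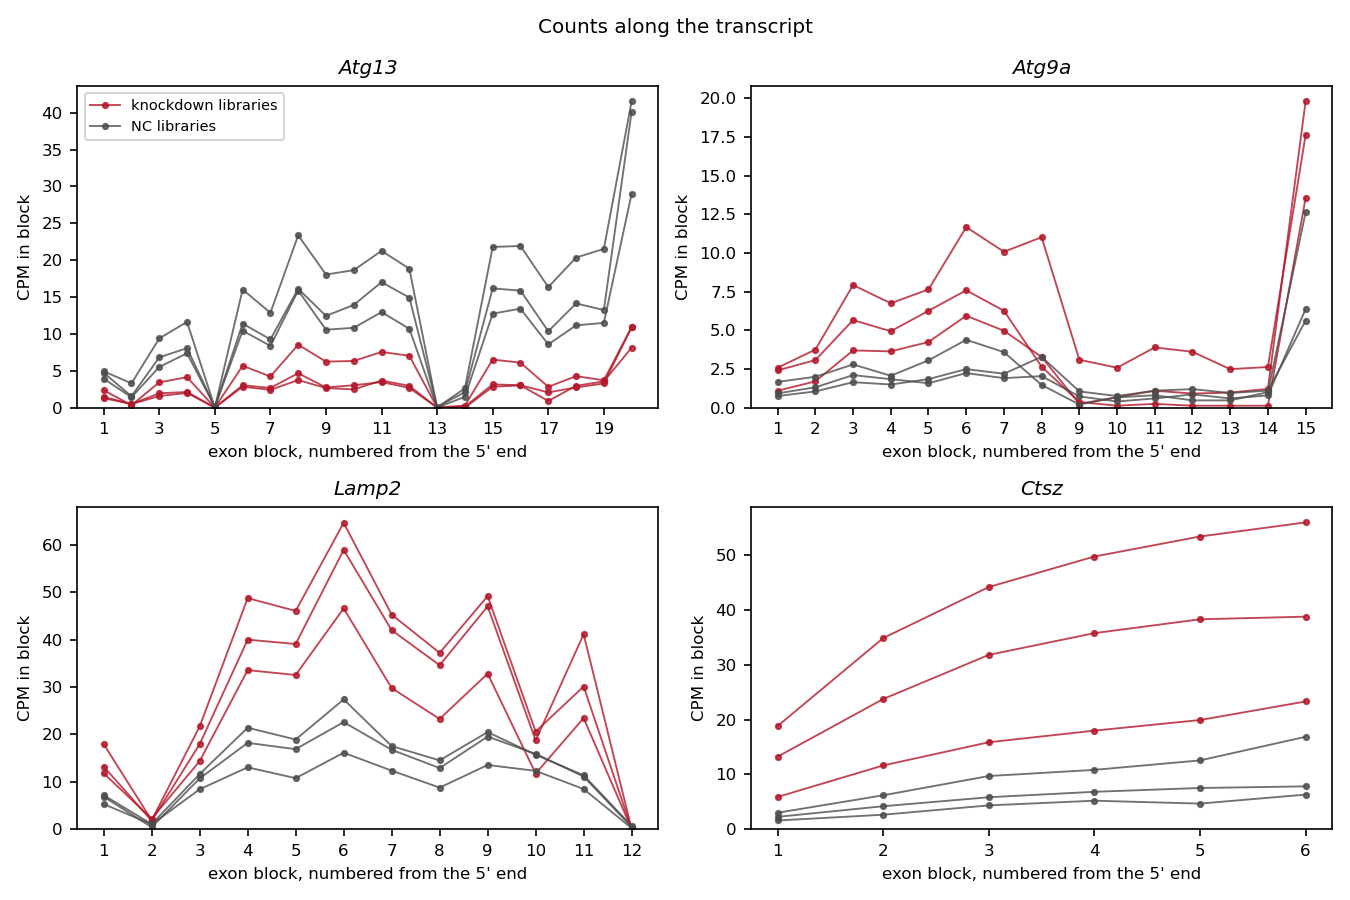
CPM in each exon block, numbered from the 5′ end, for Atg13, Atg9a, Lamp2 and Ctsz, with 1 line per library (3 knockdown and 3 NC). Knockdown lines lie below NC lines along Atg13 and above them along Ctsz, and meet the NC lines at block 10 of Lamp2. In Atg9a the groups are apart in 6 of the 15 blocks. They overlap over blocks 9 to 14 of Atg9a, where knockdown replicate 1 is the highest line and replicate 3 is low.

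Lamp1 had 1039.9, 764 and 727 CPM in the knockdown and 1350.1, 986 and 1476 CPM in NC, with a narrow overlap between knockdown replicate 1 and NC replicate 2 (−0.59, adjusted p 0.224). Cd63, a tetraspanin of late endosomes, had 1912, 3351 and 2919.9 CPM in the knockdown and 1603, 2811 and 2417 CPM in NC (0.26, adjusted p 0.659). Scarb2, the carrier of glucocerebrosidase, and Mcoln1, a lysosomal calcium channel, averaged 99.0 ± 30.7 and 45.2 ± 22.0 CPM in the knockdown and 127 ± 27.8 and 57.1 ± 18.7 CPM in NC. Neither passed (−0.36 and −0.34).

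The proton pump members had log2 fold changes of opposite sign. Atp6v1h (ENSMUSG00000033793, chromosome 1, 5070018 to 5162529, plus strand), the regulatory H subunit of the cytosolic part, had 554, 490.3 and 457 CPM in the knockdown, against 164, 192 and 301 CPM in NC. It was 2.28-fold higher without overlap (log2 1.19, standard error 0.31, adjusted p 0.0323 by edgeR). The adjusted p was 0.0552, 0.0781 and 0.0613 without knockdown replicates 1, 2 and 3, and 0.113 and 0.139 without NC replicates 1 and 2. All 13 of its counted blocks had a higher mean in the knockdown, and in 7 of them the groups did not overlap. Atp6v0d1, a subunit of the membrane part, had 68.7, 77.7 and 55.9 CPM in the knockdown against 94.3, 97.4 and 79.1 CPM in NC. It was lower in 3 of 3 knockdown libraries without passing the test (−0.42, adjusted p 0.323).

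Among the 9 lysosomal enzymes the cysteine proteases Ctsz and Ctsc rose and 7 did not pass. Ctsz (ENSMUSG00000016256, chromosome 2, 174427493 to 174439039, minus strand), a carboxypeptidase, had 257, 94.6 and 182 CPM in the knockdown, against 34.4, 59.1 and 24.7 CPM in NC. Its knockdown libraries spread widely yet all stood above NC, with means of 178 ± 81.4 CPM in the knockdown and 39.4 ± 17.8 CPM in NC (SD, n = 3 each). Ctsz was 4.52-fold higher (log2 2.18, standard error 0.44, adjusted p 0.0128 by edgeR), and all 6 of its blocks were higher without overlap. The adjusted p was 0.0502 without NC replicate 1 and 0.0524 without NC replicate 3.

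Ctsc (ENSMUSG00000030560, chromosome 7, 88278085 to 88310888, plus strand) is a dipeptidyl peptidase that activates serine proteases in immune cells. It had 954, 845 and 865 CPM in the knockdown, against 213, 433 and 459 CPM in NC. The knockdown libraries lay close together and far above NC (2.41-fold, log2 1.27, standard error 0.34, adjusted p 0.0366 by edgeR), and all 9 blocks were higher without overlap. The call was lost when any 1 of the 6 libraries was left out (adjusted p 0.0560 to 0.0926). Block 3 of Ctsc, of 85 bases, held 0.408%, 0.480% and 0.327% of Ctsc block counts in the knockdown against 0.0930%, 0.0770% and 0.10% in NC (exon usage, adjusted p 0.115).

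For the other enzymes the groups overlapped. Ctsa, a carboxypeptidase that protects Neu1, had 1500.3, 827 and 910.2 CPM in the knockdown and 1199.8, 1424 and 1569 CPM in NC (−0.37). Ctsb, an abundant cysteine protease, had 346, 226 and 195 CPM in the knockdown and 338, 297 and 568 CPM in NC (−0.65). Ctsl, an endopeptidase, had 258, 389 and 133 CPM in the knockdown and 309.8, 295 and 464 CPM in NC (−0.45). These 3 did not pass, with adjusted p-values of 0.477, 0.241 and 0.473 by edgeR. Exons of other genes cover 12.8% of Ctsb, of which Fdft1 shares 774 bases, and 26.8% of Ctsl.

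Several members varied most among the knockdown pools themselves. Sqstm1, the p62 receptor that carries ubiquitinated cargo to ATG8 proteins and is itself degraded by autophagy, had 329, 146 and 52.4 CPM in knockdown replicates 1, 2 and 3, against 143, 108 and 120.1 CPM in NC. Knockdown replicate 1 was 6.28 times replicate 3, while the NC libraries differed by 1.32 times. Sqstm1 did not pass (0.51, adjusted p 0.555 by edgeR) and had −0.36 without knockdown replicate 1.

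Among the enzymes, Ctsd, Gusb, Hexa and Neu1 also spread more widely in the knockdown. So did Ctsl, with a highest to lowest ratio of 2.92 in the knockdown and 1.57 in NC, Ctsz (2.72 and 2.40) and Ctsa (1.815 and 1.31). Ctsc, with 1.13 in the knockdown and 2.15 in NC, and Ctsb, with 1.78 in the knockdown and 1.91 in NC, did not. Ctsd, the aspartic protease, had 959, 539 and 187 CPM in the knockdown and 679.8, 487 and 840.4 CPM in NC (−0.25). Gusb, which cleaves glucuronides, had 125, 35.4 and 18.1 CPM in the knockdown and 59.4, 52.9 and 69.2 CPM in NC (−0.02). In both, knockdown replicate 1 exceeded every NC library and replicate 3 was below every one. Hexa, a subunit of the enzymes that cleave gangliosides, had 522, 351 and 183 CPM in the knockdown and 463, 326 and 430.0 CPM in NC (−0.21). Neu1, the lysosomal sialidase, had 150.1, 175 and 50.9 CPM in the knockdown and 102, 74.8 and 80.1 CPM in NC (0.55). Ctsd, Gusb, Hexa and Neu1 did not pass, with adjusted p-values of 0.406 to 0.985 by edgeR. Gusb moved to −1.22 (adjusted p 0.0551) without knockdown replicate 1 and to 0.40 without knockdown replicate 3. The gene Gm49369 on the same strand shares 808 bases with Ctsd, 34.4% of its exon length. Part of the Ctsd counts therefore cannot be assigned to one of them.

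Knockdown replicate 1 was the highest knockdown library for 24 of the 36 members (66.7%), against 34.9% of all genes tested. Replicate 3 was the highest for 4. In NC the highest library was replicate 1 for 14 members, replicate 2 for 7 and replicate 3 for 15. Knockdown replicate 1 also had the lowest Eif4a3 level of the 3 pools and the highest trophectoderm marker level, at 1177 CPM per kilobase, against 586 and 264 in knockdown replicates 2 and 3. The part of the marker level in the spread of the members was not tested.

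**Figure D4:**
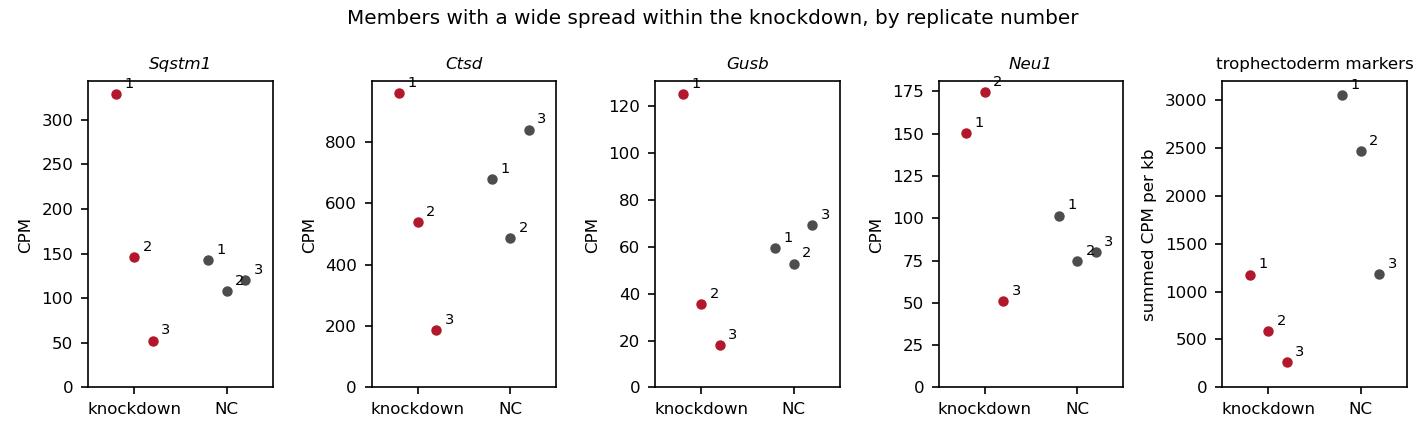
CPM of Sqstm1, Ctsd, Gusb and Neu1, and summed CPM per kilobase of 6 trophectoderm markers, in each library, knockdown left and NC right, numbered by replicate. Knockdown replicate 3 is the lowest point of all 6 in every panel, and knockdown replicate 1 is the highest point for Sqstm1, Ctsd and Gusb.

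Across the list, levels per length ranged over several orders of magnitude and largely kept their order. In CPM per kilobase, Gabarapl2, Map1lc3b, Cd63 and Lamp1 were the 4 highest in both groups, at 1817, 731, 741 and 315 in the knockdown and 1877, 695, 618 and 475 in NC. Ctsa and Ctsd followed with 229 and 239 in the knockdown and 296 and 285 in NC, and their order is within the spread. Atg13 had rank 23 in the knockdown, at 14.6 CPM per kilobase, and rank 12 in NC, at 54.8. Ctsz had rank 10 in the knockdown, at 123, and rank 18 in NC, at 27.3. Among the lowest levels were those of Tfe3, 0.326 in the knockdown and 0.551 in NC, and Atg9b, 3.33 in the knockdown and 0.321 in NC. Summed by role, the ATG8 genes had 1771 to 3345 CPM per kilobase in the knockdown and 1811 to 3422 in NC, and the 9 enzymes 709.6 to 1495 in the knockdown and 914 to 1204 in NC. Those sums overlapped. The sum of the kinase complex, 20.9 to 41.7 in the knockdown and 56.8 to 89.3 in NC, did not. Ulk1 overlapped, so this separation came from Atg13. The conjugation machinery, mostly Atg5, had 69.7 to 80.7 in the knockdown and 55.4 to 61.7 in NC, without overlap. The proton pump had 78.0 to 95.2 in the knockdown and 69.5 to 74.9 in NC, without overlap. Atp6v0d1 was lower in the knockdown (37.6 against 50.3), so the pump separation came from Atp6v1h. Tfeb with Tfe3, in NC mostly Tfeb, had 0.587 to 1.88 in the knockdown and 3.22 to 9.93 in NC, without overlap. The 7 further conjugation genes listed below had 73.1 to 109.2 in the knockdown and 109.5 to 116.4 in NC, so the groups nearly met. Atg4b was the largest part of that sum, at 50.3 in the knockdown and 67.6 in NC, and did not pass (adjusted p 0.361 by edgeR). Of these 7 genes, 5 had a negative and 2 a positive log2 fold change. The 17 other pump subunits overlapped, with 1539 to 2093 in the knockdown and 1452 to 2097 in NC. The 15 further initiation and membrane supply genes had 1003 to 1293 in the knockdown and 430 to 748 in NC. Most of that sum was Tmem41b, which averaged 749 in the knockdown and 361 in NC and did not pass (adjusted p 0.113 by edgeR). Of these 15 genes, 0 were called higher and 1, Atg2a, was called lower. The 32 other hydrolases and cofactors had 761 to 1596 in the knockdown and 2567 to 3791 in NC. Psap and Gm2a averaged 1772 and 594 of that sum in NC, and 340 and 139 in the knockdown. Fusion genes had 170 to 227 in the knockdown and 326 to 389 in NC. Further lysosomal membrane and delivery genes had 731 to 1090 in the knockdown and 485 to 668 in NC. The sums of receptors and of nutrient sensing genes overlapped. Among single genes, the groups did not overlap for 36.4% of all genes tested. No test was made of these sums.

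Since Eif4a3 acts on spliced mRNA and the counts are per exon, exon usage was also compared. Of the 34 members with blocks to test, 0 passed (Wipi1 and Tfe3 had too few counts), against 86 of 9494 genes (0.906%), by edgeR's Simes test over the blocks of a gene. Unadjusted, 2 members had p under 0.05, Cd63 and Ctsc. Most members had an unadjusted Simes p of 0.85 or more, so the test was very cautious on them. Not passing it therefore does not show that exon usage was unchanged, for Atg9a and Uvrag among others. The first Cd63 block held 0.250%, 0.246% and 0.223% of its counts in the knockdown and 0.0470%, 0.0780% and 0.0680% in NC. The knockdown shares were each above every NC share, and the last Cd63 block held over 98% in all 6 libraries. Cd63 had an adjusted p of 0.252 by the Simes test and passed by the gene-level F test of edgeR (0.0379), the only member to do so. The called members were somewhat longer and had more exon blocks than the others, with medians of 5715.5 against 4631.5 bases of exon and 14 against 9.5 blocks, which was not tested.

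A further 127 genes of the pathway were listed with their roles, and 122 were tested. Of these, 3 rose and 9 fell (9.84%, against 13.1% of all genes tested), with a median log2 fold change of −0.05. The groups did not overlap for 18 higher and 25 lower genes (35.2%, against 36.4%). Lysosomal hydrolases and their cofactors had 1 of 29 higher and 3 lower, lysosomal membrane and delivery genes 2 of 16 higher and 2 lower. Initiation and membrane supply (15 genes), receptors (10), fusion (13) and other pump subunits (16) had 1 lower each and 0 higher. Conjugation (7) and nutrient sensing (16) had 0 passing by edgeR, with 2 and 3 genes at an unadjusted p under 0.05.

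Psap, the precursor of the saposins that present lipids to hydrolases, had 1996, 467 and 333 CPM in the knockdown, against 6096, 3863 and 4624 CPM in NC (5.22-fold lower, log2 −2.38, standard error 0.62, adjusted p 0.0331 by edgeR). Knockdown replicate 1 stood well above the other pools but below NC, and without it the log2 fold change was −3.65. The Psap call was lost without knockdown replicate 2 (0.11), knockdown replicate 3 (0.0748) or NC replicates 1, 2 or 3 (0.0857, 0.0703 and 0.0707). Gm2a, the activator of ganglioside breakdown by Hexa, had 379, 788 and 557 CPM in the knockdown, against 3203, 1776 and 2379.8 CPM in NC (4.27-fold lower, log2 −2.09, standard error 0.38, adjusted p 0.00838). It kept the call under every alternative. Hexa itself did not pass.

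In the membrane and trafficking roles, Atg2a, which transfers lipid to the growing autophagosome, averaged 7.72 ± 0.866 CPM in the knockdown and 35.6 ± 14.4 CPM in NC (log2 −2.20, adjusted p 0.00713). Npc1, which exports cholesterol from lysosomes, averaged 13.7 ± 3.16 CPM in the knockdown and 42.9 ± 5.64 CPM in NC (−1.64, adjusted p 0.0100). Both kept the call under every alternative. Vamp8, a fusion SNARE, averaged 133 ± 36.6 CPM in the knockdown and 328 ± 74.7 CPM in NC (−1.31, adjusted p 0.0262). Its adjusted p was 0.0560 and 0.0555 without knockdown replicates 2 and 3, and 0.0688 and 0.0854 without NC replicates 2 and 3. The scaffold Wdfy3 averaged 5.91 ± 1.95 CPM in the knockdown and 15.96 ± 2.13 CPM in NC (−1.43, adjusted p 0.0347), and the pump subunit Atp6v0a4 51.4 ± 8.94 CPM in the knockdown and 132 ± 18.8 CPM in NC (−1.36, adjusted p 0.0132). Wdfy3 lost the call without knockdown replicates 1 or 3 (0.0503 and 0.0919), without NC replicates 1, 2 or 3 (0.0947, 0.0950 and 0.0643) and with all lines summed (0.0615). Atp6v0a4 lost it without knockdown replicate 2 (0.0524) or NC replicate 2 (0.0582) and with only its most counted block (0.0560).

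Aga, which removes the glycan from asparagine, had 62.6, 24.0 and 27.4 CPM in the knockdown, against 6.17, 6.51 and 2.95 CPM in NC. It was 7.29-fold higher without overlap (log2 2.86, standard error 0.48, adjusted p 0.00652 by edgeR), kept the call under every alternative, and had 2.26 without knockdown replicate 1. The protease Lgmn, which processes cathepsins, averaged 111 ± 27.8 CPM in the knockdown and 271 ± 17.97 CPM in NC (−1.28, adjusted p 0.0188). Its adjusted p was 0.0669 without knockdown replicate 2, and 0.0688 and 0.0546 without NC replicates 2 and 3.

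The subunits of the enzyme that tags hydrolases with mannose phosphate for delivery to lysosomes went opposite ways. Gnptab, the catalytic precursor, averaged 14.8 ± 1.09 CPM in the knockdown and 38.4 ± 8.77 CPM in NC (−1.38, adjusted p 0.0190 by edgeR). Gnptg, the gamma subunit, averaged 91.0 ± 17.4 CPM in the knockdown and 43.4 ± 4.49 CPM in NC (1.07, adjusted p 0.0323). Exons of Unkl cover 49.5% of the Gnptg exon length, and without shared blocks Gnptg had 1.10 (adjusted p 0.0317). The Gnptab call was lost without knockdown replicates 2 or 3 (0.0590 and 0.0565) or NC replicates 1 or 2 (0.0663 and 0.0727). Gnptg lost it without knockdown replicates 1 or 3 (0.0593 and 0.0797) or NC replicates 1, 2 or 3 (0.116, 0.129 and 0.0796). Cln3, a lysosomal membrane protein, averaged 88.6 ± 22.5 CPM in the knockdown and 36.8 ± 12.5 CPM in NC (1.27, adjusted p 0.0389), a call lost when any 1 of the 6 libraries was left out (0.0587 to 0.123).

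**Figure D5:**
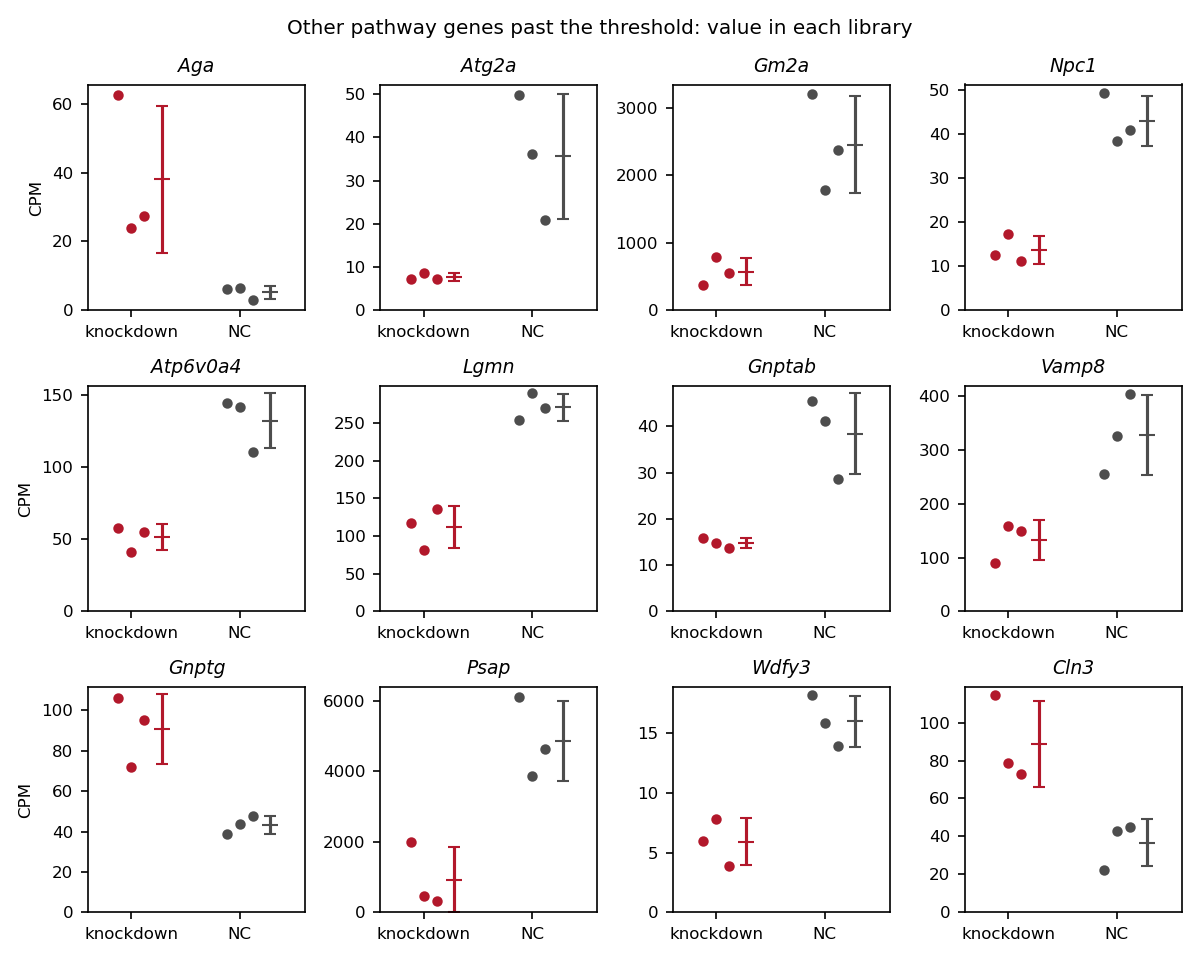
CPM in each library of the 12 other pathway genes past the threshold, knockdown left and NC right, with the mean and SD of 3 libraries. Aga, Gnptg and Cln3 are higher and the other 9 genes lower in the knockdown, with no overlap of the libraries.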

How the data were processed

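Per the submitters' processing notes, reads were handled with FastQC 0.11.9, fastp 0.20.1, STAR 2.7.6a, featureCounts 2.0.1, R 4.1.1 and DESeq2 1.34.0 on GRCm38. Per the file headers, the deposited values are raw counts of read pairs per annotated exon line (GENCODE vM29 on GRCm38 coordinates), each pair counted in every line it overlaps, with strand setting 2. Smart-seq2 does not mark strand, so pairs of the other orientation are not counted and overlapping genes cannot be told apart. The planned test assumed counts per gene, and the values turned out to be per exon line. From the 842173 lines, repeats were dropped and overlapping exons of 1 gene were joined into blocks. A block took the count of its most counted line, and a gene the sum of its blocks. A pair that spans exons counts more than once in these sums, so they exceed numbers of molecules.

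Ensembl IDs were matched to symbols (55102 of 55378). Genes were tested with edgeR 4.0.16 under R 4.3.3 (filterByExpr, TMM scaling, glmQLFit, glmQLFTest, two-sided), with Benjamini-Hochberg adjustment over 15619 genes and a threshold of 0.05. CPM are scaled to TMM library sizes, ± is the SD of 3 libraries, and paralog ratios are log2 of CPM plus 0.5. Exon usage was tested with diffSpliceDGE. Alternatives were RLE size factors, DESeq2 1.42.0, no filter or a filter of 5 CPM in 3 libraries, all lines summed, the most counted block, shared blocks left out, the replicate number as a block, each library left out in turn, and a pseudocount of 0.1 CPM. Scripts were tested on simulated data.

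The members and gene lists were chosen with earlier results of these data known. All members could be named, with values per library for called members and paralog pairs, and of other pathway genes up to 12 past the threshold by smallest p. Members outside that rule were given values after these were seen.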

Additional observations from a re-analysis of the deposited data

How the results depend on the processing

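Higher and lower genes numbered 1174 and 869, and 1894 and 1407 by DESeq2, 2089 and 1518 with no filter on low counts, and 550 to 1224 and 336 to 1130 with 1 library left out. The members called higher and lower, 8 and 2, became 2 to 5 and 1 to 3 with 1 library left out, and 7 to 8 and 2 otherwise. The other pathway genes called higher, 3, became 7 by DESeq2, 8 with no filter, 5 with the most counted block and 1 to 3 with 1 library left out, and those called lower, 9, became 3 to 17. Genes with changed exon usage, 86, became 7 with the filter of 5 CPM, 280 by the F test and 19 to 98 with 1 library left out, and members, 0, became 1 by the F test. The cause was not tested.

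Direction turned only in members that did not pass. Ulk1 had 0.063 with the most counted block. Gabarapl2 and Gusb had 0.022 and 0.036 with the filter of 5 CPM. With 1 library left out the log2 fold change spanned −0.51 to 0.16 for Becn1, −0.36 to 0.32 for Map1lc3b, −0.31 to 0.0097 for Gabarap, −0.25 to 0.15 for Gabarapl2, −0.36 to 0.93 for Sqstm1, −0.92 to 0.15 for Ctsd, −0.65 to 0.10 for Hexa and −1.22 to 0.40 for Gusb.

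The labels do not say whether libraries with the same replicate number were paired. Deviations of same-numbered libraries correlated at 0.269, 0.003 and 0.10 for replicates 1, 2 and 3. The value for replicate 1 was the highest of any knockdown and NC pair, but not every library correlated best with its own number. These correlations cannot decide whether same-numbered libraries shared a batch. With the number as a replicate block, 1331 genes were higher and 1196 lower, 8 members higher and 2 lower, 6 other pathway genes higher and 11 lower, and 132 genes and 1 member (Cd63, adjusted p 0.00734 by edgeR) changed exon usage. Eif4a3 had −2.95 and Cln3 lost its call (1.29, adjusted p 0.0513).

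The median log2 fold change of all genes tested, 0.03, was 0.18 by DESeq2 and 0.17 with no filter. The number of libraries, 3 a group, limits the precision.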
